A study of Mus musculus with 7 samples.

Results

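The promoter peaks of small RNA genes were the merged peaks of histone H3 lysine 18 lactylation (H3K18La) in mouse retina that the deposited annotation placed at a promoter, from 1000 bases before to 500 bases after a transcription start site, of a transcript with the biotype miRNA, snRNA, snoRNA, scaRNA, misc_RNA or rRNA. There were 407 such peaks for 401 genes, 0.376% of all 108253 peaks and 2.37% of the 17144 promoter peaks. They comprised 167 snoRNA, 118 miRNA, 54 snRNA, 38 misc_RNA, 25 rRNA and 5 scaRNA peaks. The mark was profiled by CUT&Tag, in which an antibody to the modified histone directs a protein A-tethered enzyme to the DNA around it, to follow how it changes while the retina matures. Retinas of C57Bl/6J mice were taken at postnatal days 4, 10 and 28 (P4, P10 and P28) and dissociated into single cells, with no genetic change or treatment at any age. P4 and P10 had 2 libraries each and P28 had 3, of which replicate 1 alone was labelled batch 2. Whole retina was used, so a difference between ages can come from more cells of a type or from more mark per cell, and these cannot be told apart.

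Levels are RPKM, reads scaled to the length of the peak and to a normalized library size, and changes are differences of age means of log2(RPKM + 1). The libraries held 199970 to 8274373 reads in peaks, and the share of the normalized library that lay in peaks was 16.3% and 17.6% at P4, 36.1% and 52.1% at P10 and 42.4% to 57.1% at P28. The part of depth and of this share in the results below was not tested. Over the 407 peaks the median read number was 3 at P4 in both libraries, 1 and 3 in the P10 libraries and 8, 40 and 15 in the P28 libraries. No library of the age had more than 3 reads at 199 of the 407 peaks at P4, at 219 at P10 and at 16 at P28, and such a level is close to what a count of 0 allows. Of 8 photoreceptor marker genes 7 had a promoter peak, with a summed level of 16.1 and 17.5 RPKM at P4, 129 to 145 RPKM at P10 and 98.8 to 142 RPKM at P28. Of 10 marker genes of endothelium, pigment epithelium, liver, muscle and immune cells 2 had a promoter peak, Kdr and Cldn5, with a summed level of 3.98 and 4.10 RPKM at P4, 5.81 and 8.12 RPKM at P10 and 3.38 to 4.23 RPKM at P28. The 2 of 3 Mueller glia markers with a peak summed to 4.12 and 4.40 RPKM at P4 and 13.1 to 17.4 RPKM at P28, and the 2 of 5 inner retina markers to 4.27 and 6.01 RPKM at P4 and 4.82 to 6.12 RPKM at P28.

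Small RNA genes make short transcripts that act as RNA. MicroRNAs are cut from hairpins and pair with messenger RNAs through a short seed near their 5′ end, snRNAs form the core of the spliceosome, and snoRNAs and scaRNAs guide chemical changes on ribosomal and spliceosomal RNA. Many microRNAs, snoRNAs and scaRNAs lie in introns and are made from the host gene's transcript, whereas snRNA genes have promoters of their own with a distal and a proximal element upstream of the start, and U6, 7SK, Y RNA and 5S rRNA genes are read by RNA polymerase III. The mouse genome also holds many diverged copies of these genes, a large part of which are retrocopies without a promoter of their own.

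Of the 8 microRNA genes of a list from retina, brain and other tissues that had a promoter peak, Mir124a-3 is named only and the other 7 are shown first, by the mature strand in RefSeq (GRCm38.p6) and with the seed, bases 2 to 8, in capitals. No 2 of these strands share a seed. For Mir375 the sequences used held the 5p strand only, so the seed shown is that of the 5p strand alone.
miR-96-5p: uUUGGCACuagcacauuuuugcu
miR-132-3p: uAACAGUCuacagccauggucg
miR-210-3p: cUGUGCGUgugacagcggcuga
miR-375-5p: gCGACGAGccccucgcacaaac
let-7i-5p: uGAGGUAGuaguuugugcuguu
miR-7a-5p: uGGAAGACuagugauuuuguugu
miR-128-3p: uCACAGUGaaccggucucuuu

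Promoters of a U1, a U2 and a U4 gene are shown because these genes gained signal and carry the octamer described below. Each window is 300 bases of GRCm38.p6, from 250 bases before to 50 bases after the gene start in the deposited annotation. Capitals mark any match to the octamer ATTTGCAT, to the GC box motif GGGCGG or to the motif of the TATA box, TATAAA. Each motif was searched on its own on both strands, so a base can belong to matches of more than 1 motif.
Gm22068 (U1, chr11:87426466-87426765, plus strand): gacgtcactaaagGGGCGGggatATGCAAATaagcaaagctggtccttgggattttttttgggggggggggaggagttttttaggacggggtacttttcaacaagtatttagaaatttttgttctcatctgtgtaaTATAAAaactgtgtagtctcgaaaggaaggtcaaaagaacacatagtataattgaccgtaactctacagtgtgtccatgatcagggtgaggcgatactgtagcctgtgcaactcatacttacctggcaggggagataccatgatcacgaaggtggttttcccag
Gm24497 (U2, chr1:72243963-72244262, plus strand): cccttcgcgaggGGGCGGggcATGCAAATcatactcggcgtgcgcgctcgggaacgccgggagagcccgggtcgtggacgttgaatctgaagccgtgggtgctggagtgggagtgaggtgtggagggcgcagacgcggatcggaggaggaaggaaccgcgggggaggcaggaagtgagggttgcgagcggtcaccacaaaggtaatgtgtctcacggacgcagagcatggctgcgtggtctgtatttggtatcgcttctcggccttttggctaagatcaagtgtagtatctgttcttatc
Gm24407 (U4, chr5:115490004-115490303, plus strand): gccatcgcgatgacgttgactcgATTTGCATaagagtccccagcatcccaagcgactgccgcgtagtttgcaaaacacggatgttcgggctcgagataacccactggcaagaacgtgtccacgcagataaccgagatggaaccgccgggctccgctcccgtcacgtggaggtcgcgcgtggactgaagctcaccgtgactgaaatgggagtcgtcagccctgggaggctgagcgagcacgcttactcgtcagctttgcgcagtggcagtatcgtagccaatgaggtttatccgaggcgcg

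A window of the SNORA17 copy Gm23439 is given for comparison, in the same form, and lies at the start of the gene, beyond the end of the peak that fell.
Gm23439 (SNORA17, chr2:107886590-107886889, minus strand): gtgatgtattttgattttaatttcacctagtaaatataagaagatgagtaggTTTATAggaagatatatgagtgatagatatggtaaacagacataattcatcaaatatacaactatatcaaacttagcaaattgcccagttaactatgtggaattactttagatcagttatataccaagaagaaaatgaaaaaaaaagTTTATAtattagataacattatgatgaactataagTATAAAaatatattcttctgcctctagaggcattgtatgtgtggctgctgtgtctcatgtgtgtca

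From P4 to P28, H3K18La rose at 92 of the 407 small RNA promoter peaks and fell at 19, by limma with a Benjamini-Hochberg adjusted p under 0.01 over all peaks. These were 22.6% and 4.67% of the members, beside 18.9% of all peaks that rose and 4.21% that fell, 23.1% in either direction. The members as a whole were thus near the background, and below coding gene promoters, where 33.6% rose and 0.288% fell. The median change was 0.59 over the members, 0.68 over all peaks and 1.35 over the 11100 coding promoter peaks. All P28 libraries lay above all P4 libraries at 198 members and below them at 105, beside 50.6% and 20.7% of all peaks. The count of 111 rested on each library at the ends of the comparison, as it was 37 without P4 replicate 1, 39 without P4 replicate 2, and 64, 47 and 45 without P28 replicates 1, 2 and 3. Of these the falls were 5, 4, 6, 7 and 5, and without P10 replicates 1 and 2 they were 32 and 33. P28 replicate 1 is the library of batch 2, so the value of 64 is also the value within batch 1.

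From P4 to P10, the signal rose at 51 members and fell at 32, 12.5% and 7.86%, beside 11.4% and 7.34% of all peaks and 18.7% in either direction. Both P10 libraries lay above both P4 libraries at 154 members and below them at 100, beside 36.1% and 20.9% of all peaks. Without P4 replicate 1 the P10 count of 83 dropped to 15, without P4 replicate 2 to 21, and without P28 replicates 1, 2 and 3, which enter the shared estimate of the spread, to 46, 34 and 42. Between P10 and P28 limma called 0 members, beside 0.00185% of all peaks, which is 2 peaks, both higher at P28, and 0% lower. An unadjusted p under 0.05 was reached there by 121 members, 29.7% beside 32.5% of all peaks. On the reads limma voom called 7 members higher and 17 lower, 1.72% and 4.18% beside 2.17% and 6.09% of all peaks. The 3 P28 libraries lay above both P10 libraries at 140 members and below them at 62, beside 32.2% and 14.9% of all peaks. Over the 3 ages together the moderated F-test called 113 members, beside 24.6% of all peaks.

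The classes differed in their counts and medians. The snRNA peaks rose at 25 of 54 and fell at 3, and their median level was 1.34 RPKM at P4, 3.27 RPKM at P10 and 5.43 RPKM at P28. At the miRNA peaks 30 of 118 rose and 1 fell, and the median level was 1.44, 3.20 and 3.16 RPKM at the 3 ages. The snoRNA peaks, the largest class, rose at 20 of 167 and fell at 13, 12% and 7.78% beside 18.9% and 4.21% of all peaks, and the median level went from 1.91 RPKM at P4 to 1.49 RPKM at P10 and 1.29 RPKM at P28. The 13 falls were 4 and 3 without P4 replicates 1 and 2, 2, 6 and 3 without P28 replicates 1, 2 and 3, and 24 and 25 without P10 replicates 1 and 2.

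The median changes from P4 to P28 were 1.61 for snRNA, 0.93 for miRNA, -0.38 for snoRNA, 2.15 for scaRNA, 0.92 for misc_RNA and -0.12 for rRNA. Only the snoRNA and rRNA medians were below 0, and that of rRNA was above 0 without P4 replicate 1 (0.20) or 2 (0.06) and without P28 replicate 1 (0.04) or 3 (0.02). At all 5 scaRNA peaks the P4 and P28 libraries did not overlap, P28 being higher, as was so at 50.6% of all peaks. Rises were called at 46.3% of the snRNA peaks, 25.4% of the miRNA peaks, 12% of the snoRNA peaks and 23.7% of the misc_RNA peaks, and at 3 of 5 scaRNA and 5 of 25 rRNA peaks, against 18.9% of all peaks. Without 1 of the P4 or P28 libraries the rises were 6 (P4 replicate 1) to 16 (P28 replicate 1) for snRNA, 12 (P4 replicate 2) to 18 (P28 replicate 1) for miRNA, and 6 (either P4 replicate) to 15 (P28 replicate 1) for snoRNA. For misc_RNA they were 2 to 4 and for rRNA 2 in each of these fits. No test was made between the classes. From P4 to P10 the medians were 1.08, 0.56, -0.33, 1.48, -0.05 and -0.55 in the same order. In simulated libraries of these depths, peaks of few reads that had not changed shifted on this scale, slightly upward at P28 and downward at P10, and the part of this shift in the class medians was not tested. Among the 208 members above the read floor at P4, 43 rose and 10 fell by P28, 20.7% and 4.81%, with a median of 0.09. Among the 199 at the floor 49 rose and 9 fell, 24.6% and 4.52%, with a median of 0.88. These shares stand beside 18.9% and 4.21% of all peaks. The P4 reads that split the members also enter the change, so the difference of these medians is not read as a result. Without 1 of the P4 or P28 libraries the 43 were 16 to 26, the 10 were 1 or 2, the 49 were 16 to 32 and the 9 were 3 to 5, with the lowest rises without P4 replicate 1 and the highest without P28 replicate 1. Without P10 replicates 1 and 2 the 10 falls were 18 and 20 and the 9 were 14 and 13.

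**Figure D1:**
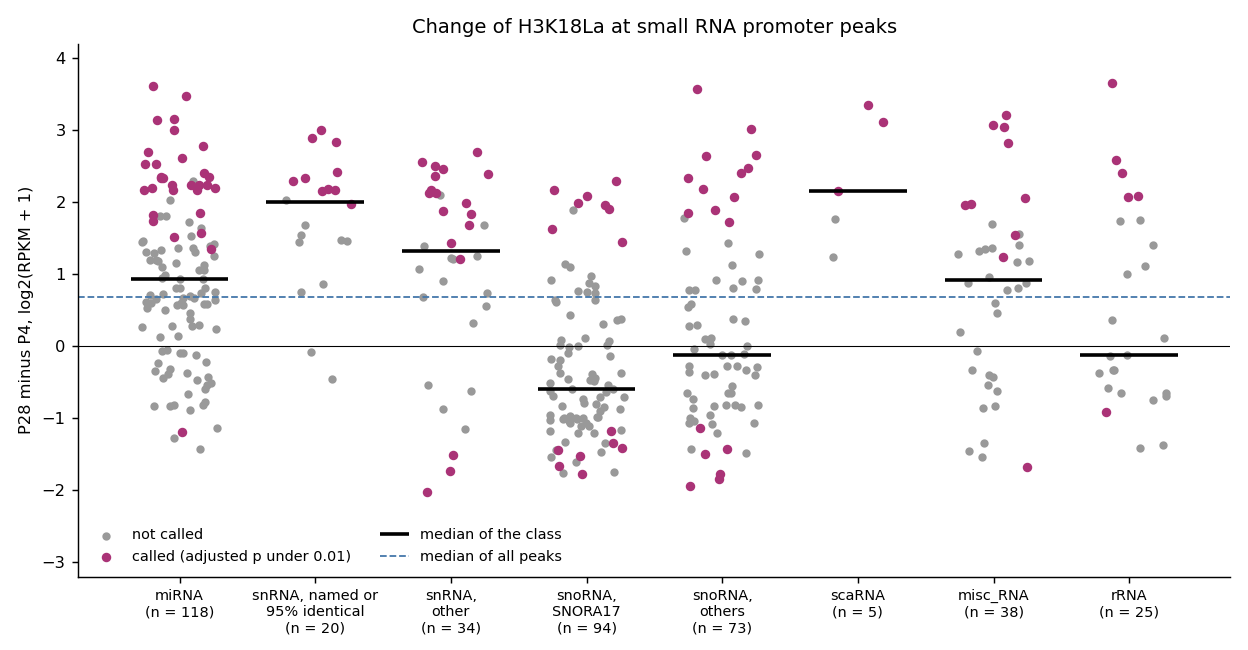
Change of H3K18La from P4 to P28 at each of the 407 small RNA promoter peaks, on the log2(RPKM + 1) scale, by class, with called peaks in purple, the class median as a bar and the median of all peaks, 0.68, as a dashed line. The medians of the snRNA groups, 2.00 and 1.32, lie above the dashed line, and the SNORA17 copies lie mostly below 0 with a median of -0.59.

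The microRNA list held genes known from retina, brain and other tissues, and 8 of them had a promoter peak of their own, of which 3 rose from P4 to P28 and 0 fell, beside 18.9% and 4.21% of all peaks. The 3 were 2 without P4 replicate 1 or without any P28 library, and 5 without either P10 library. At Mir96 (chr6:30166966-30169895), a sensory-cell microRNA abundant in photoreceptors, the P4 libraries had 1.86 and 1.63 RPKM, the P10 libraries 14.8 and 14.8 RPKM and the P28 libraries 12.4, 14.5 and 18.4 RPKM. All P10 and P28 libraries lay far above P4, and the P28 mean was 8.66-fold that of P4. The log2 difference was 2.54 (SE 0.29, adjusted p = 0.000259) at P28 and 2.53 (adjusted p = 0.000833) at P10, on 12 and 8 reads at P4. The peak also covers the hairpin of Mir183, which shares the primary transcript with Mir96, and lies outside any other gene.

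At Mir124a-3 (chr2:180892682-180893888), a copy of the most abundant neuronal microRNA, the P4 libraries had 1.51 and 1.48 RPKM, the P10 libraries 8.97 and 8.49 RPKM and the P28 libraries 10.2, 10.8 and 10.3 RPKM. The replicates lay close together at each age, and the log2 difference of P28 from P4 was 2.20 (SE 0.29, adjusted p = 0.000450). This peak ends before the hairpin and is also the promoter of the lncRNA gene Gm27032. At Mir132 (chr11:75172603-75174264), an activity-regulated neuronal microRNA, the libraries had 0.547 and 2.15 RPKM at P4, 5.43 and 10.4 RPKM at P10 and 9.63, 8.88 and 8.83 RPKM at P28. The P4 replicates differed several-fold, P10 and P28 overlapped, and all libraries of both ages lay above P4, with a log2 difference of P28 from P4 of 2.19 (SE 0.40, adjusted p = 0.00233). The call was lost without P4 replicate 1 (adjusted p = 0.0289) and without any P28 library (0.0145, 0.0139 and 0.0132 for replicates 1, 2 and 3). The Mir132 peak also holds the hairpin of its neighbour Mir212 and the promoter of the lncRNA gene 1700016P03Rik.

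At Mir210 (chr7:141221121-141222515), a hypoxia-induced microRNA, P4 had 2.28 and 1.71 RPKM, P10 had 0 and 5.65 RPKM and P28 had 12.6, 12.6 and 16 RPKM. The P28 libraries stood well above all others, and the log2 difference of 2.30 (SE 0.65) missed the threshold with an adjusted p of 0.0179. The test passed without P10 replicate 1 (adjusted p = 9.3e-05) or P10 replicate 2 (adjusted p = 0.00011), each of which leaves a single P10 library and so no spread between P10 libraries. At Mir375 (chr1:74899722-74901296), best known from endocrine cells, the libraries had 0.577 and 0.758 RPKM at P4, 4.58 and 5.51 RPKM at P10 and 2.67, 3.47 and 2.85 RPKM at P28. This peak was highest at P10, where it rose by 1.86 (adjusted p = 0.00784), while the P28 difference of 1.26 had an adjusted p of 0.0245. The P10 call was lost without any single library other than P10 replicate 1, with adjusted p from 0.0105 without P10 replicate 2 to 0.0294 without P4 replicate 1.

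The other 3 listed genes did not pass in either comparison. At Mirlet7i (chr10:122985397-122986590), of the let-7 family that rises as progenitors mature, the levels were 3.81 and 1.00 RPKM at P4, 3.02 and 3.96 RPKM at P10 and 4.61, 4.53 and 4.19 RPKM at P28 (adjusted p = 0.150 for P28 against P4). At Mir7-2 (chr7:78887224-78887909) they were 3.97 and 1.74, 0 and 1.15, and 2.29, 2.15 and 3.02 RPKM. At Mir128-2 (chr9:112118104-112119227), a neuronal microRNA inside the Arpp21 gene, they were 3.64 and 3.19, 4.82 and 0, and 1.40, 2.35 and 2.46 RPKM. At Mir7-2 the P4 and P28 libraries overlapped and both P10 libraries were lower, whereas at Mir128-2 both P4 libraries lay above all 3 P28 libraries without passing the test.

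**Figure D2:**
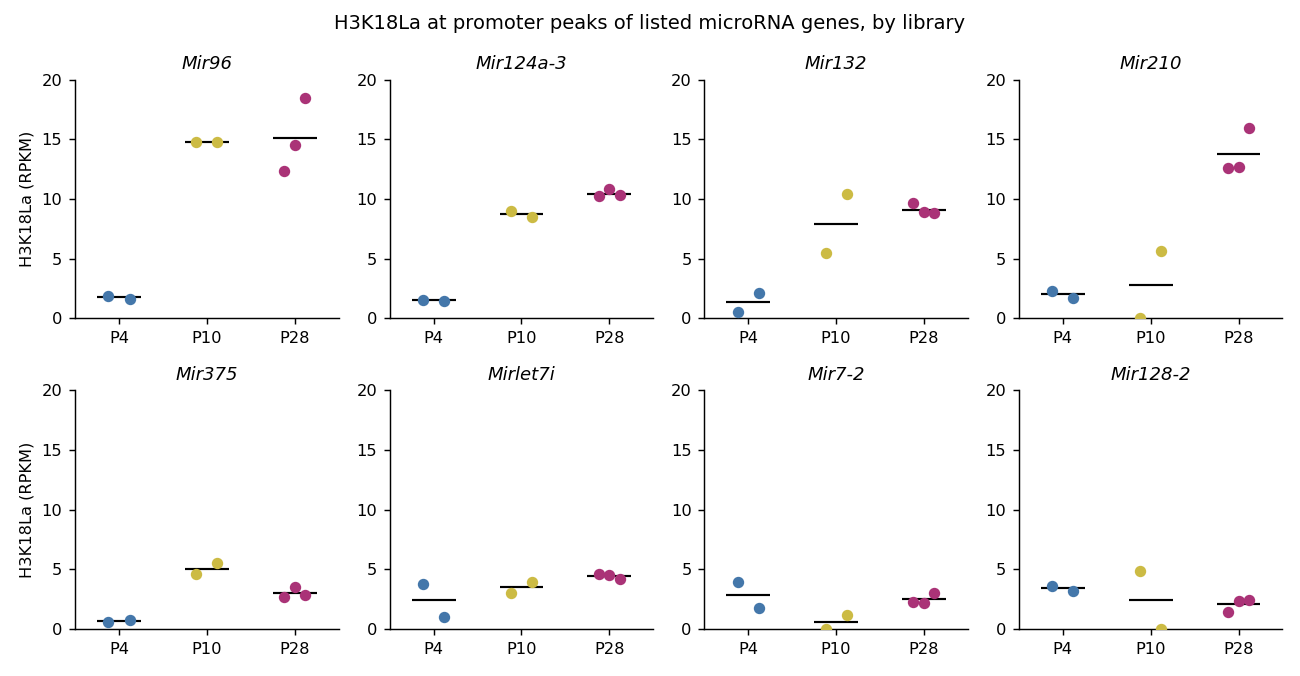
H3K18La in RPKM at the promoter peaks of the 8 listed microRNA genes, 1 point per library and a bar for the mean of each age. At Mir96, Mir124a-3 and Mir132 both P10 and all 3 P28 libraries lie above both P4 libraries, and at Mir210 the P28 libraries lie between 12.6 and 16 RPKM.

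Many retinal microRNAs had no peak at their hairpin. Of 88 listed hairpins placed by RefSeq, 12 lay in a peak and 9 of those in a small RNA promoter peak, while those of Mir182, Mir204 and Mir184 lay in none. A hairpin without a peak can still belong to a primary transcript whose promoter lies farther away. The hairpin of Mir9-1, a regulator of neural progenitors, lay in the promoter peak of the antisense gene Gm25641 (chr3:88214413-88216044), at 0.88 RPKM on average at P4 and 2.77 RPKM at P28 (adjusted p = 0.135). That of Mir9-2 lay in a promoter peak annotated to the lncRNA gene C130071C03Rik, whose mean went from 1.58 RPKM at P4 to 8.38 RPKM at P28, a log2 difference of 1.85 (adjusted p = 0.00198).

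Among all miRNA peaks the largest rises were at genes without a known retinal role. Gm23840 (chr11:78754446-78755410) had 0.942 and 1.86 RPKM at P4, 37.4 and 25.3 RPKM at P10 and 21.2, 30.8 and 32.8 RPKM at P28, and with a log2 difference of 3.61 (SE 0.32, adjusted p = 0.000127) it exceeded 99.2% of all peaks at P28. Mir8120 (chr3:65658665-65659880) had 1.12 and 1.96 RPKM at P4, 10.4 and 11.7 RPKM at P10 and 21.1, 21.7 and 20.7 RPKM at P28. Its 3 ages were fully separate, with a log2 difference of 3.15 at P28 (SE 0.28, adjusted p = 0.000129), though the difference between P10 and P28 did not pass. Mir6928, in an intron of the proton pump subunit gene Atp6v0a1, rose by 3.48 from 0 and 1 reads at P4 to 10.9, 12.4 and 18.1 RPKM at P28. Gm44340 and Gm24575 rose by 3.16 and 3.00, and the call at Gm24575 was lost without P4 replicate 2.

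The miRNA peak with the highest level over the ages was that of Mir3089 (chr2:30721431-30723147), with 3.70 and 7.99 RPKM at P4, 22.1 and 49.6 RPKM at P10 and 25.1, 29.3 and 31.3 RPKM at P28. The P10 replicates differed more than 2-fold and held the highest value, and the rise of 2.18 to P28 (adjusted p = 0.00193) was lost without either P4 library and without any P28 library. The single fall was at Gm23630, from 2 and 1 reads at P4 to 1, 0 and 0 reads at P28, which is at the floor at both ages, and the call was lost without either P4 library and without P28 replicate 2 or 3. Of the 44 miRNA peaks inside coding genes 13 rose, and of the 51 outside genes 11 rose, 29.5% and 21.6% beside 18.9% of all peaks, with medians of 1.08 and 0.81. Without 1 of the P4 or P28 libraries these rises were 4 (P4 replicate 2) to 8 (P28 replicate 1) and 5 (P4 replicate 2) to 7 (P28 replicate 1), and without either P10 library 20 and 19. RefSeq holds 74 of the 118 miRNA members. Mir148a and Mir152 share the seed CAGUGCA, and of these Mir152, in the Copz2 promoter, went from 0 reads at P4 and P10 to 2.44, 1.90 and 1.34 RPKM at P28, a call lost without either P4 library.

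The snRNA class held genes of the U1, U2, U4, U5, U6, U6atac and U11 RNAs and diverged copies of them. Near-identical copies share reads, and how reads that map to several copies were treated is not given in the sources used here, so the split of signal between copies is uncertain, although a peak also draws on the flanks of each copy. Over the first 250 bases upstream, 7 U2 copies were 58.0% to 97.6% identical to each other with a median of 61.6%.

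Copies that carry a gene name or are at least 95% identical to a named one made up 20 of the 54 snRNA peaks, and 10 of these rose and 0 fell, with median levels of 1.22, 3.89 and 6.98 RPKM at the 3 ages. Of the 34 others 15 rose and 3 fell, and the levels were 1.40, 3.08 and 4.0 RPKM. Both counts stand beside 18.9% of all peaks that rose and 4.21% that fell. The median changes were 2.00 and 1.32. The 34 hold the U4 gene Gm24407 and the U6atac gene Gm25541, whose families have no named reference here, and the 32 copies without these rose in 13 and fell in 3, with a median of 1.24. Without 1 of the P4 or P28 libraries the 10 rises were 4 (P4 replicate 1) to 8 (P28 replicate 1) and the 15 were 2 (P4 replicate 1) to 8 (P28 replicate 1). The named copies had more CpG sites in the peak, at a median of 0.59 of the number expected from base composition, against 0.21 in the other 34 and 0.20 in all peaks.

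The snRNA peak with the highest level was at the U6 copy Gm24859 (chr12:52602879-52604174), with 3.16 and 4.60 RPKM at P4, 15.3 and 17.6 RPKM at P10 and 23.3, 23.7 and 27.6 RPKM at P28. It was 99.1% identical to Rnu6, lay at the promoter of the lncRNA gene 1700031P21Rik, and rose in steps at which no library of neighbouring ages overlapped, by 2.42 from P4 to P28 (SE 0.27, adjusted p = 0.000237), 6.40-fold in mean level. A second U6 copy beside it on the opposite strand, Gm23296, rose from 3.45 and 1.81 RPKM to 14.7, 15.1 and 14.9 RPKM. At Gm25064 (chr9:63132138-63133682), identical to Rnu6, the levels were 2.35 and 2.32 RPKM at P4, 9.35 and 9.18 RPKM at P10 and 13.2, 14.9 and 20.5 RPKM at P28, a difference of 2.35 (adjusted p = 0.000379). Copies close to Rnu6 did not all gain. Gm25869, also 100% identical, had 1.32 and 3.46 RPKM at P4 and 1.52, 1.07 and 1.5 RPKM at P28, and Gm22740, 95.4% identical, had 2.26 and 4.16 RPKM at P4 and 2.35, 3.43 and 2.92 RPKM at P28. At these 2 copies the peak lies before the gene, at -820 and -115 bases from its start, and the ages overlapped.

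The U1 gene Gm22068 (chr11:87426265-87427172), identical to Rnu1a1 and in a peak that is also a coding promoter of Tex14, the gene it lies in, had the largest snRNA rise, 3.01 (SE 0.36, adjusted p = 0.000314). It had 0.5 and 0 RPKM at P4, which is 1 and 0 reads, 9.94 and 9.55 RPKM at P10 and 6.93, 8.66 and 11.4 RPKM at P28. Its neighbour Rnu1a1, 3 kb away in the Tex14 gene, had 0.879 and 1.73 RPKM at P4, 1.75 and 4.57 RPKM at P10 and 4.06, 5.88 and 7.35 RPKM at P28, which did not pass (adjusted p = 0.0194). The U3 snoRNA genes Rnu3b1 and Rnu3b4 lie in the same Tex14 gene and rose by 2.66 and 2.07, the second of which was not called without either P4 library or without P28 replicate 2 or 3.

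The U2 genes lie in clusters, of which 4 peaks on chromosome 1 stood within 72225543 to 72255729. At Gm24497 (chr1:72243537-72244523) the levels were 1.38 and 3.63 RPKM at P4, 9.15 and 10.4 RPKM at P10 and 14.9, 11.5 and 15.4 RPKM at P28, a rise of 2.16 (adjusted p = 0.00121) that was lost without P4 replicate 1 (adjusted p = 0.0138). Of its cluster Gm25360 and Gm23472 also rose, by 2.19 and 2.90, the former lost without either P4 library and without P28 replicate 2 or 3, the latter from 1 and 0 reads at P4 and lost without any P4 or P28 library, and Gm25939 did not pass (1.47, adjusted p = 0.0173). Rnu2-10 on chromosome 11 had 0.319 and 0.838 RPKM at P4, 1.27 and 6.09 RPKM at P10 and 9.94, 9.58 and 10.8 RPKM at P28, and its rise of 2.83 (adjusted p = 0.00160) was lost when any P4 or P28 library was left out. Of the 8 U2 peaks 5 rose, which were 0 without P4 replicate 1, 1 without P4 replicate 2 and 3, 1 and 1 without P28 replicates 1, 2 and 3. The single fall was at the diverged copy Gm23118, from 4 and 3 reads at P4, a call lost without either P4 library and without P28 replicate 1 or 2.

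The U4 gene Gm24407 (chr5:115489229-115490299) had 1.70 and 1.67 RPKM at P4, 10.1 and 16.9 RPKM at P10 and 12.7, 13.7 and 16.3 RPKM at P28, a rise of 2.5 (SE 0.31, adjusted p = 0.000366). The U5 gene Rnu5g had 0.477 and 4.39 RPKM at P4 and 8.27, 10.9 and 13.1 RPKM at P28, and its difference of 2.04 did not pass (adjusted p = 0.0131) beside P4 replicates that differed widely. For the minor spliceosome, the U6atac gene Gm25541 rose by 2.13, from 0.965 and 0.95 RPKM to 6.82, 7.57 and 8.43 RPKM (adjusted p = 0.00121, lost without either P4 library and without P28 replicate 2 or 3), and Rnu11 had 0.631 and 1.66 RPKM at P4 and 4.74, 6.49 and 6.00 RPKM at P28 (adjusted p = 0.0832).

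**Figure D3:**
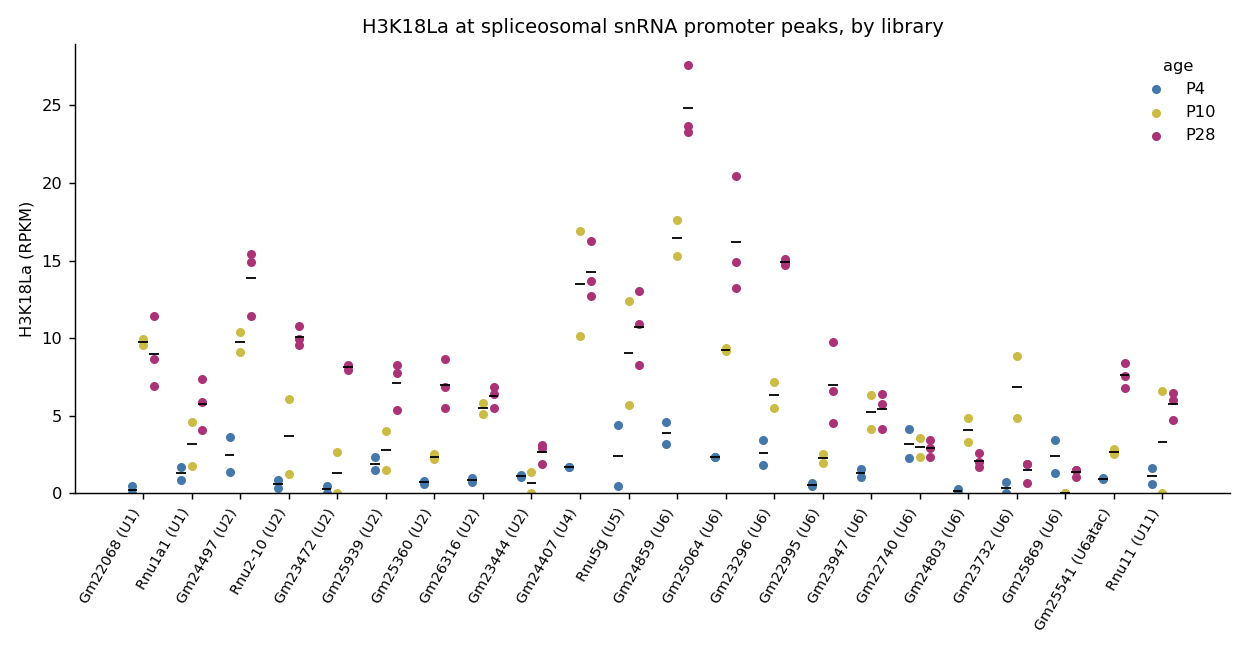
H3K18La in RPKM by library at the 20 snRNA promoter peaks of named or near-identical copies and at the U4 gene Gm24407 and the U6atac gene Gm25541, with bars for the means of P4, P10 and P28. Most copies are highest at P28, up to 27.6 RPKM at Gm24859, while the U6 copies Gm22740 and Gm25869 show no gain and Gm23732 is highest at P10.

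The octamer of the printed windows was frequent in this class. It occurred on either strand in the 300-base window of 14 of 54 snRNA genes, 25.9%, against 1.74% of 32851 reference promoters of the same length. It was in 13 of the 20 named or near-identical copies, in 7 of 8 U2 genes and in 1 of the 34 others, the U4 gene Gm24407, and in the snRNA windows the match began at positions -231 to -179 relative to the start. Of the 14 snRNA peaks with the octamer 10 rose (5 without P4 replicate 1, 6 without P4 replicate 2 or without P28 replicate 2 or 3) and 0 fell, with a median change of 2.18, and of the 40 without it 15 rose and 3 fell, with a median of 1.32, beside 18.9% of all peaks that rose and 4.21% that fell. The 15 rises were 1 without P4 replicate 1, 4 without P4 replicate 2 and 8, 3 and 3 without P28 replicates 1, 2 and 3, and the 3 falls were 1 without either P4 library or without P28 replicate 2. GGGCGG was in 6 of 8 U2 windows, against 35.7% of the reference promoters and 10.7% of all member genes. TATAAA was in 17.7% of the member windows and in 13.6% of the reference promoters. Between 40 and 20 bases before the start TATAAA was searched on the strand of the RNA only. There it was in none of the 54 snRNA windows, in 2.00% of the member windows and in 1.99% of the reference promoters.

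Most snoRNA peaks belonged to diverged copies of a single H/ACA snoRNA, SNORA17, which accounted for 94 of the 167. Of these, 8 rose and 7 fell by P28, while 2 rose and 11 fell by P10. That is 8.51% and 7.45% at P28, beside 18.9% and 4.21% of all peaks, and at P10 2.13% and 11.7%, beside 11.4% and 7.34%. The P28 counts were 0 and 2 without P4 replicate 1, 1 and 1 without P4 replicate 2, and 5 and 2, 1 and 4, and 1 and 1 without P28 replicates 1, 2 and 3, and the P10 falls were 2 without either P4 library. The median level was 1.98 RPKM at P4, 1.17 RPKM at P10 and 1.02 RPKM at P28. The P28 libraries all lay below the P4 libraries at 47 of the 94 and above them at 19, against 20.7% and 50.6% of all peaks. The copies were 64.9% to 85.9% identical to named Snora17 genes, 77 of them lay outside other genes, and their peaks were poor in CpG sites, at 0.09 of expectation, and richer in soft-masked repeats, with a median of 23.6% of bases against 10.1% in all peaks.

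The 77 SNORA17 peaks outside genes and the 17 in or at genes differed in median change, -0.73 and 0.44, with 5 that rose and 7 that fell outside genes and 3 and 0 in or at genes, beside 18.9% of all peaks that rose and 4.21% that fell. The 5 and 7 were 0 and 2 without P4 replicate 1, 1 and 1 without P4 replicate 2, and 4 and 2, 0 and 4, and 0 and 1 without P28 replicates 1, 2 and 3, the falls were 15 without either P10 library, and the 3 were 0 without either P4 library and 1 without any P28 library. At P4, 35 of the 94 had at most 3 reads in each library. The copy Gm23439 (chr2:107884660-107886401) had the most reads of the peaks that fell, 20 and 15 at P4. Its levels were 5.22 and 5.14 RPKM at P4, 4.15 and 3.62 RPKM at P10 and 0.602, 0.917 and 0.892 RPKM at P28. The 3 ages did not overlap, and P28 lay 1.78 below P4 on the log2 scale (adjusted p = 0.00522), a call that was lost when any P4 or P28 library was left out. The copy Gm24869 went the other way, from 3.15 and 5.26 RPKM to 15.7, 18.7 and 24.5 RPKM, and was among the 3 highest snoRNA peaks by the mean over the ages, though its call was lost without either P4 library and without P28 replicate 2 or 3. The largest fall by P10 was at the copy Gm24665, from 4.90 and 4.29 RPKM at P4, on 3 and 2 reads, to 0 in both P10 libraries, at the floor at both ages. Its call was lost without P4 replicate 1 or 2 (adjusted p = 0.0282 and 0.0252) and without P28 replicate 2 or 3 (0.0162 and 0.0128).

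Of the remaining snoRNA peaks, the 19 of other families named in RefSeq rose in 9 and fell in 2, with a median change of 1.32. The 9 SNORA48 peaks rose in 0 and fell in 1, with a median of -0.55. The 45 without a RefSeq entry rose in 3 and fell in 3, with a median of -0.32. Both medians were below 0, as was that of SNORA17, -0.59. Of all peaks 18.9% rose and 4.21% fell. Without any 1 of the P28 libraries the 3 falls were at most 1. Without P4 replicate 1 or 2 the 9 rises were 3, and without P28 replicate 2 or 3 they were 4. At the SNORA65 copy Gm22807 (chr11:20848462-20850936) the levels were 4.59 and 5.06 RPKM at P4, 28.4 and 32.2 RPKM at P10 and 25.2, 28.1 and 32.2 RPKM at P28. The replicates were close at each age, the mean rose 5.90-fold, and the peak exceeded 99.2% of all peaks at P28, although it lies at -581 bases from the gene's start and does not reach it. Gm24648, at a peak -999 bases from the start, went from 1.87 and 3.16 RPKM to 19.0, 20.6 and 22.6 RPKM.

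Gm24346, in an intron of N4bp2, rose by 3.58, from 1.95 and 0 RPKM at P4 through 3.88 and 6.78 RPKM at P10 to 16.9, 16.4 and 26.7 RPKM at P28. The SNORA11 copy Gm22676 in Aven rose by 3.02, which was lost without either P4 library. Snora9, an H/ACA snoRNA in the Snhg15 host gene promoter, had 0.883 and 0.386 RPKM at P4, 7.02 and 11.7 RPKM at P10 and 6.63, 7.92 and 9.73 RPKM at P28, a rise of 2.48 (adjusted p = 0.000771) that was not called without P4 replicate 2. Rnu3b1, for the U3 RNA that takes part in processing the ribosomal precursor, had 0 and 1.03 RPKM at P4 and 8.14, 8.05 and 7.74 RPKM at P28. Its copy Rnu3b4 had 0 reads in both P4 libraries and 2.88, 3.37 and 3.39 RPKM at P28. Of the 11 snoRNA peaks of named or near-identical genes 6 rose (3 without P4 replicate 1, 2 without P4 replicate 2 and 3 without P28 replicate 2 or 3) and 1 fell, and of the 156 others 14 rose and 12 fell, 8.97% and 7.69% beside 18.9% and 4.21% of all peaks. For the 156 the rises and falls were 3 and 4 without P4 replicate 1, 4 and 2 without P4 replicate 2, and 10 and 2, 5 and 5, and 5 and 3 without P28 replicates 1, 2 and 3, while the falls were 23 and 24 without P10 replicates 1 and 2.

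The 19 members that fell had at most 20 reads in any P4 library. Gm22074, a snoRNA copy, had 5.13 and 2.62 RPKM at P4, 3.4 and 4.94 RPKM at P10 and 0.329, 0.154 and 0.217 RPKM at P28. Gm24717 had 2.00 and 4.59 RPKM at P4 and 0.144, 0.169 and 0.0949 RPKM at P28. The snRNA copies Gm25382 and Gm23538 changed by -2.02 and -1.51, from 4 and 7 reads and from 3 and 2 reads at P4. The calls at Gm22074, Gm24717 and Gm25382 were lost without P4 replicate 2 and without any P28 library, those at Gm22074 and Gm25382 also without P4 replicate 1, and the call at Gm23538 held without each library.

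The scaRNA class is small, and 3 of its 5 peaks rose. Scarna17, at the promoter of the fatty acid oxidation gene Acaa2, had 3.91 and 6.24 RPKM at P4, 12.2 and 19.9 RPKM at P10 and 24.2, 24.5 and 27.9 RPKM at P28. Its ages were fully separate, with a rise of 2.15 (adjusted p = 0.000643) that was lost without P4 replicate 1 (adjusted p = 0.0145). Gm26347, a scaRNA11 gene in Rnf41, went from 0.897 and 0 RPKM to 12.1, 12.3 and 14.9 RPKM, and Gm25395, a scaRNA6 gene at the promoter of the autophagy gene Atg16l1, from 0 and 0.624 RPKM to 8.23, 10.5 and 11.7 RPKM. Their rises at P28 were 3.35 and 3.12. Both were also called at P10, a call lost at Gm25395 without P4 replicate 1 and at Gm26347 without any library other than P10 replicate 1. Scarna2 and Gm25913 had differences of 1.24 and 1.78 and did not pass.

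The misc_RNA class rose at 9 of 38 peaks and fell at 1. Among its genes of known identity Rn7sk, for the 7SK RNA that holds back transcription elongation, had 0.450 and 0.296 RPKM at P4, 0 and 0 RPKM at P10 and 1.82, 1.43 and 1.37 RPKM at P28 (adjusted p = 0.0233). The Y RNA genes Rny1 and Rny3 had 5.55 and 3.89 RPKM on average at P28 and did not pass (adjusted p = 0.0237 and 0.109). The 9 peaks of Rn7sk and of the copies nearest to it had a median of 1.88 RPKM at P28, and 2 of them reached 10 RPKM. The highest, Gm25580, 83.7% identical to Rn7sk and inside the gene of the respiratory regulator Nrf1, had 0.786 and 3.1 RPKM at P4, 28.1 and 27.3 RPKM at P10 and 20.9, 20.3 and 24.2 RPKM at P28. Its rise was 3.41 at P10 (adjusted p = 0.000606) and 3.07 at P28 (adjusted p = 0.000270). By contrast Gm25433 had 0.366 and 0.480 RPKM at P4, 0 and 1.27 RPKM at P10 and 12.5, 10.8 and 13.5 RPKM at P28, with a rise of 3.22 from P4 and a difference from P10 that did not pass (adjusted p = 0.0113). Without P4 replicate 1 or 2 it was not called (adjusted p = 0.0128 and 0.0115). Gm27668 likewise had 2.66 and 3.48 RPKM at P10 and 13.9, 14.1 and 17.5 RPKM at P28, a rise from P4 that was lost without P4 replicate 1. The misc_RNA copies Gm22277 and Gm26313 fell by P10, to 0 reads from 2 and 2 and from 4 and 2 at P4. The call at Gm22277 was lost without any P4 or P28 library (adjusted p between 0.0110 and 0.0341), and that at Gm26313 without any 1 of the 7 libraries (0.0114 to 0.0616).

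The rRNA class consisted of 5S rRNA copies, of which 1 of 25, n-R5s151, was at least 95% identical to the genes of the 5S array. Of the 25 peaks 5 rose and 1 fell. n-R5s39, in the Dcaf13 gene, had 1.08 and 0 RPKM at P4, 4.30 and 5.63 RPKM at P10 and 14.4, 15.7 and 22.6 RPKM at P28, a rise of 3.66 (SE 0.39, adjusted p = 0.000223), the largest of all members. n-R5s193 was highest at P10, with 9.19 and 18.5 RPKM, against 1.85 and 0.608 RPKM at P4 and 6.95, 8.07 and 9.32 RPKM at P28. n-R5s84 and Gm23905 rose by 2.41 and 2.58, the calls at n-R5s193 and n-R5s84 were lost at P28 without any P4 or P28 library, and the median change of the class was -0.12.

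The peaks were also counted by position, which overlaps with class, since 127 of the 254 peaks outside genes were snoRNA. Of 103 peaks inside coding genes 31 rose and 0 fell, of 18 at coding promoters 7 rose and 0 fell, and of 18 at lncRNA promoters 8 rose and 0 fell, with medians of 1.10, 1.27 and 1.55, beside 18.9% of all peaks and 33.6% of coding promoters that rose and 4.21% and 0.288% that fell. Of 254 peaks outside genes 45 rose and 18 fell, with a median of -0.10 that turned to 0.09 without P4 replicate 2 and to 0.01 without P28 replicate 1. Without 1 of the P4 or P28 libraries the rises inside coding genes were 9 (P4 replicate 2) to 18 (P28 replicate 1) and those outside genes 13 (P4 replicate 1) to 29 (P28 replicate 1). Those at coding promoters were 3 (P4 replicate 1) to 5 (any P28 replicate), those at lncRNA promoters 4 (P4 replicate 1) to 6 (P28 replicate 1), and the 18 falls outside genes 4 (P4 replicate 2) to 7 (P28 replicate 2), though 31 without either P10 library. The 14 inside lncRNA genes rose in 1 and fell in 1. A peak inside or at another gene cannot be assigned to the small RNA rather than to that gene.

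CpG content was low in most members. The median ratio of observed to expected CpG was 0.67 in coding promoter peaks, 0.20 in all peaks and 0.17 in the members, and within the members 0.32 for scaRNA, 0.25 for snRNA, 0.24 for miRNA, 0.20 for misc_RNA, 0.19 for rRNA and 0.10 for snoRNA. Other than the snoRNA peaks, the classes were thus near or above all peaks. The coding promoter and lncRNA promoter settings had ratios of 0.37 and 0.65, against 0.14 outside genes. The plot of CpG ratio against change shows the falls at low ratios.

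**Figure D4:**
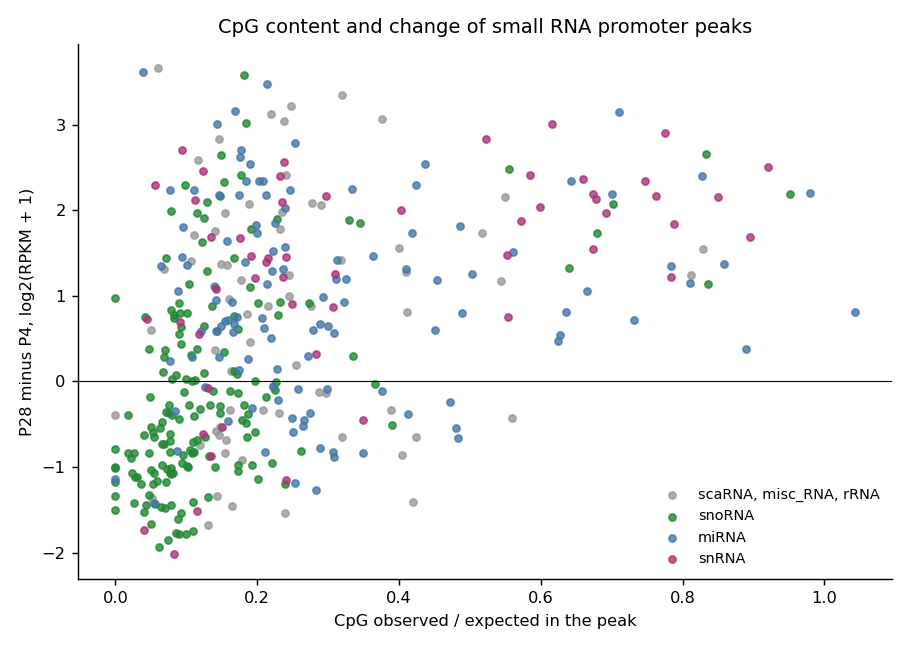
Ratio of observed to expected CpG in each small RNA promoter peak against its log2(RPKM + 1) change from P4 to P28, 1 point per peak, coloured by class. Nearly all snoRNA points lie at low ratios and on both sides of 0, while the snRNA points at ratios above the coding promoter median of 0.67 all lie above 0.

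The promoters of the protein genes that make and carry small RNAs were read from a list of 60 gene symbols, of which 39 had a promoter peak. Znf143 and Zfp143 in the list are symbols of the same gene, whose peak is under Zfp143. From P4 to P28, 14 of the 39 rose and 0 fell, beside 33.6% and 0.288% of coding promoters. By P10 5 rose and 0 fell, near the shares of coding promoters, 12.3% and 0.892%. The 5 were 2, 1 and 1 without P28 replicates 1, 2 and 3. The 14 were 3 and 1 without P4 replicates 1 and 2, 6, 3 and 4 without P28 replicates 1, 2 and 3, and 26 without either P10 library. Of the microRNA maturation genes 5 of 11 rose, of the snRNA transcription genes 3 of 6, of the RNA polymerase III genes 3 of 16 and of the snoRNP genes 3 of 6. The largest changes were at Nhp2, a core protein of H/ACA snoRNPs (2.45, adjusted p = 0.00213), Tnrc6c, an Argonaute partner in microRNA silencing (2.37, adjusted p = 0.000447), and Ago4, an Argonaute protein (2.34, adjusted p = 0.00137). The call at Nhp2 was lost without any P4 or P28 library, that at Ago4 without either P4 library and without P28 replicate 3, and the call at Tnrc6c was kept without each of the 7. Tnrc6c had 1.09 and 2.01 RPKM at P4, 8.69 and 11 RPKM at P10 and 11.7, 11.2 and 13 RPKM at P28.

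The size and sign of the changes depended on the scaling. The median change of all peaks from P4 to P28 was 0.68 as deposited, 0.16 when each library was centred on its median, -0.29 when libraries were scaled to their reads in peaks and 0.82 by voom on the reads. Relative to all peaks, the snRNA median stood higher by 0.93, 0.93, 0.89 and 1.27 under these 4 scalings, the miRNA median by 0.24, 0.24, 0.27 and 0.49, and the SNORA17 median stood at -1.28, -1.28, -1.31 and -1.97. Scaled to reads in peaks, 6 snRNA peaks rose and 5 fell, 11 miRNA peaks rose and 6 fell, and 7 snoRNA peaks rose and 54 fell. Under this scaling 7759 of all 108253 peaks rose and 16246 fell. Over all members the split of rises and falls was 92 and 19 as deposited, 67 and 50 with centring, 31 and 75 scaled to reads in peaks, and 131 and 61 by voom. Over all peaks the split was 20488 and 4553 as deposited, 14172 and 10724 with centring and 32691 and 12254 by voom. The snRNA median stayed above 0 in each of these scalings, whereas the miRNA median fell to -0.03 when scaled to reads in peaks.

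**Figure D5:**
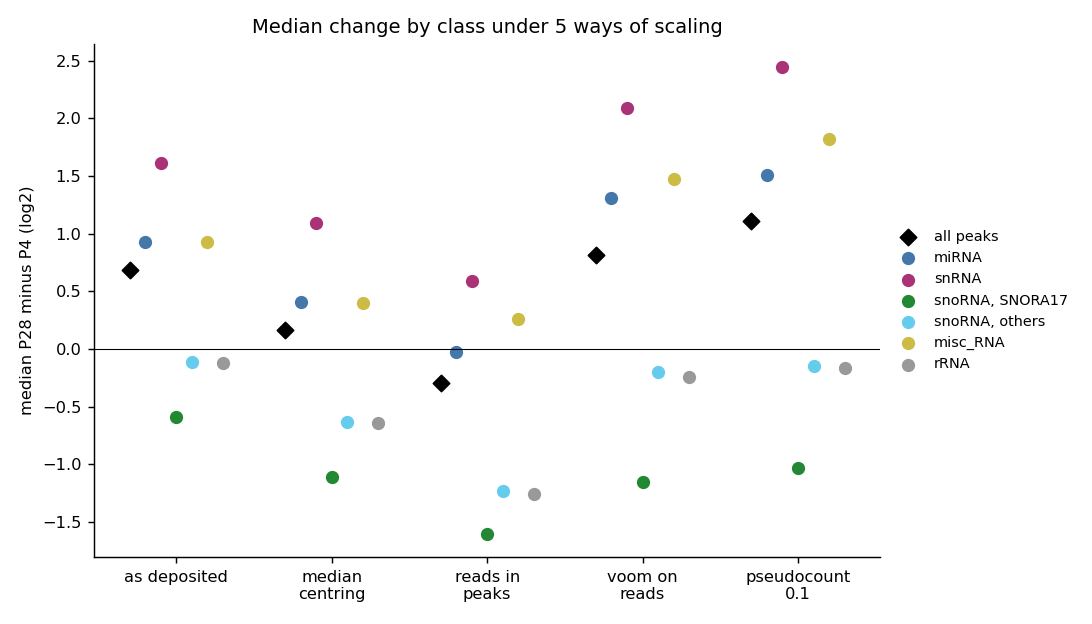
Median change from P4 to P28 (log2) of each class and of all peaks under 5 ways of scaling the same libraries, without scaRNA, which has 5 peaks. The snRNA median lies above and the SNORA17 median below that of all peaks in each. The level of all peaks moves from -0.29 to 1.11, the latter with the pseudocount of 0.1.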

How the data were processed

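H3K18La CUT&Tag was measured in 7 libraries of retina from C57Bl/6J mice, grouped by the age in the labels. The authors mapped reads to GRCm38, called peaks with MACS, merged the peaks of the ages, annotated them with ChIPseeker 1.34.1, counted reads per merged peak and scaled them by a library size normalized over large genomic windows. The values they deposited are RPKM. The labels name protein A-MNase and the study's methods protein A-Tn5 as the enzyme. The authors' edgeR 3.40.2 fold changes and p-values were deposited too and were not used.

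RPKM multiplied by peak width was a whole multiple of 1 read for 100% of values (tolerance 0.05), which gave the reads per peak. Peaks were tested with limma 3.58.1 (R 4.3.3) on log2(RPKM + 1), a scale that understates changes of low peaks, with a variance trend, all 7 libraries and no covariate, and Benjamini-Hochberg adjustment over all 108253 peaks. Calls used an adjusted p under 0.01. The fit was tested on simulated data, where it made no false call, missed most of the differences drawn at this depth and shifted unchanged low peaks as the report says. A peak that was not called may therefore have changed. Nothing in the labels says that replicates are separate animals, so p-values measure the spread between these libraries. A level of at most 3 reads in each library of an age was taken as at the floor, which covers counting error only. CpG ratios and motifs were computed on the RefSeq sequence of GRCm38.p6, with gene starts from the deposited annotation. Identities to named copies (matches over the longer length in a global alignment, Biopython 1.88) used GENCODE M21 transcripts. Positions in or at other genes came from the GENCODE M21 annotation. RefSeq gave the family names and holds a product for 165 of the 289 members other than miRNA. Named peaks were the listed microRNAs, the 3 highest peaks of each class, the 5 largest rises and 3 largest falls of each class at P28, the 3 largest rises and 3 largest falls at P10 over all classes, genes of fixed identity and the 3 most changed machinery genes. Other peaks named were chosen after their values were seen. The members and lists were chosen with earlier results of these data known. Alternatives were another pseudocount, a filter on signal, other scalings, voom on the reads, a replicate block, 1 peak per gene and leaving out each library. The promoter sequences of the U6 copies are not reported here.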

Additional observations from a re-analysis of the deposited data

How the results depend on the processing

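The replicate numbers did not pair the libraries, since the deviations of same-numbered libraries correlated by at most 0.0469, and with the replicate block 67 members were called between P28 and P4 and 66 over the 3 ages, against 111 and 113. With a pseudocount of 0.1 RPKM the counts were 71 (P28 against P4), 52 (P10 against P4), 2 (P28 against P10) and 63 (any age), and by voom on the reads 192, 64, 24 and 195, of which the P10 count is within 1.5 times the 83 of the fit as reported. Median centring gave 4 calls between P28 and P10, and testing only peaks at or above the median signal gave 50 between P10 and P4. Leaving out 1 library gave 37 to 166 calls between P28 and P4, 15 to 86 between P10 and P4, 0 to 44 between P28 and P10 (44 without P10 replicate 2) and 9 to 194 over the ages.

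The median change of the members from P4 to P28 was 0.85 with a pseudocount of 0.1, 1.36 among the peaks above the signal filter, 0.066 with centring and -0.48 scaled to reads in peaks, and the cause of this change of sign was not tested. From P4 to P10 it was 1.04 with the filter, 0.0058 with centring, -0.64 scaled to reads in peaks and 0.66 by voom. From P10 to P28 it was 0.79 with the pseudocount, 0.0011 with centring, 0.17 scaled to reads in peaks and -0.16 by voom, and the cause of the last was not tested. Leaving out 1 library gave 0.41 to 0.60, 0.03 to 0.38 and 0.13 to 0.56. Of the 62 named peaks, Mir7-2, at -0.09, ranged from -0.52 without P4 replicate 2 to 0.34 without P4 replicate 1 and Mirlet7i turned to -0.34 scaled to reads in peaks. Of the 47 named peaks called between P28 and P4, 24 lost the call without P4 replicate 1 and 24 without P4 replicate 2, and 47 kept it by voom. Named peaks under the signal filter have no value there. At simulated depths like these most drawn differences were missed. How far the low depth of the P4 and P10 libraries limits calls in the data themselves was not tested.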
